A study of Homo sapiens with 12 samples.

Results

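The 6 libraries of MIA PaCa-2, an established human pancreatic carcinoma cell line, were compared here after dividing them into 2 sets of 3. The first set held control siRNA replicates 1 and 2 and RBM3 siRNA replicate 5. The second set held control siRNA replicate 4 and RBM3 siRNA replicates 1 and 2, so that both sets mixed the study's groups. The division was made from the counts themselves, after it had been seen that more genes differed along it than between siRNA groups, and all 6 MIA PaCa-2 libraries of the 12 in the series belong to one set or the other. For this reason the differences between the sets are described and not tested. No label names a culture condition, date or batch that separates the sets, so a difference in culture state is a working name only and the sets are called first and second below.

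The study sequenced RNA from MIA PaCa-2 and from PANC-1, another pancreatic carcinoma line, each given negative control siRNA or an anti-RBM3 pair (s11858+s11860), to look for genes that depend on RBM3. That gene encodes an RNA-binding protein induced by mild cold. All cells were grown in RPMI1640 or DMEM with 10% FBS and antibiotics; which line had which medium is not stated. After 72 h in flasks they received 25 nM siRNA with lipofectamine in medium free of serum for 4.5 h, followed by an overnight recovery in full medium, controls included. Each line and siRNA had 3 libraries, and no untransfected cells are among the samples. No label states that libraries of a group came from separate flasks, and p-values below thus describe the spread among libraries, which could be technical.

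Cultured carcinoma cells differ from flask to flask in density, nutrients and the share of cells in S phase, and transcripts follow each of these. Before S phase, E2F transcription factors switch on the genes of the replication machinery, among them the MCM helicase, its loaders, DNA polymerases and enzymes that make nucleotides. Low sterol switches on the cholesterol pathway through SREBP2, low oxygen acts through HIF, and scarcity of nutrients raises lysosome and autophagy genes. RNA sequencing of bulk cells reads all of these together. Fewer cells in a phase and less RNA per cell in that phase cannot be told apart in such data.

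The libraries held 39652502, 16094995 and 17861847 counts in the first set (control 1, control 2, siRNA 5) and 16300386, 26017058 and 33358837 in the second (control 4, siRNA 1, siRNA 2). Below, the values of a gene follow this order. Levels are CPM, a library's counts scaled to a common total by TMM, and a difference between the sets is the difference of mean log2(CPM + 0.5), first minus second, called a log2 difference. A count of 0 allows up to 3 counts, or from 0.0713 to 0.196 CPM in these libraries, for counting error only. The siRNA target was lower in every siRNA library than in every control library of the line, with RBM3 at 249.6, 276 and 61.9 CPM in the first set and 206, 44.4 and 37.4 CPM in the second. PANC-1 marker genes (FOXA2, MFSD1, SPART, DDX43 and B3GALNT1) summed to at most 0.119 CPM in every MIA PaCa-2 library. Among epithelial markers KRT8, KRT18 and KRT19 were present, while EPCAM, KRT7 and CDH1 stayed under 1 CPM. Of the leukocyte markers PTPRC and CD3E were at or near 0, and CD14 (3.23 to 20.4 CPM) and LYZ (1.52 to 8.01 CPM) were low. Of the endothelial markers CDH5 reached 7.56 CPM in control 1 and no more than 0.584 CPM in the other libraries, PECAM1 was at 0, and of the 7 fibroblast markers PDGFRA and LUM were at 0 and PDGFRB and DCN at no more than 0.196 CPM. The fibroblast marker COL1A2, also a marker of the line, ran from 899 to 1813 CPM and COL3A1 from 22.0 to 78.4 CPM, so that this list summed to 921 to 1884 CPM in the first set and 1198 to 1853 CPM in the second. Among the PANC-1 libraries, siRNA 3 held 440 CPM of the MIA PaCa-2 marker COL1A2 and the other PANC-1 libraries at most 1.67 CPM.

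The sets were not compact groups of libraries. Distance was measured as the SD of the log2 difference between 2 libraries over 9690 genes at 10 CPM or more. Control 2 and siRNA 5, of the first set, were the closest pair of all at 0.251, and pairs within the second set lay between 0.273 and 0.356. Control 1 stood at 0.473 and 0.466 from its own set and nearer, at 0.393 to 0.435, to the libraries of the second set. The first principal component, with 52.0% of the variance, had scores of 0.24 and 0.25 for control 2 and siRNA 5 and of -0.28 for siRNA 1, while control 1 (-0.08), control 4 (-0.04) and siRNA 2 (-0.08) lay together. It followed a gradient in transcript composition described next. Once that was subtracted the first component (44.4%) separated the sets: scores were 0.14, 0.12 and 0.17 in the first and -0.10, -0.21 and -0.11 in the second. The sets were chosen from these counts and the subtraction was added after the data were seen. This separation is therefore a description and no support for the sets.

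**Figure D1:**
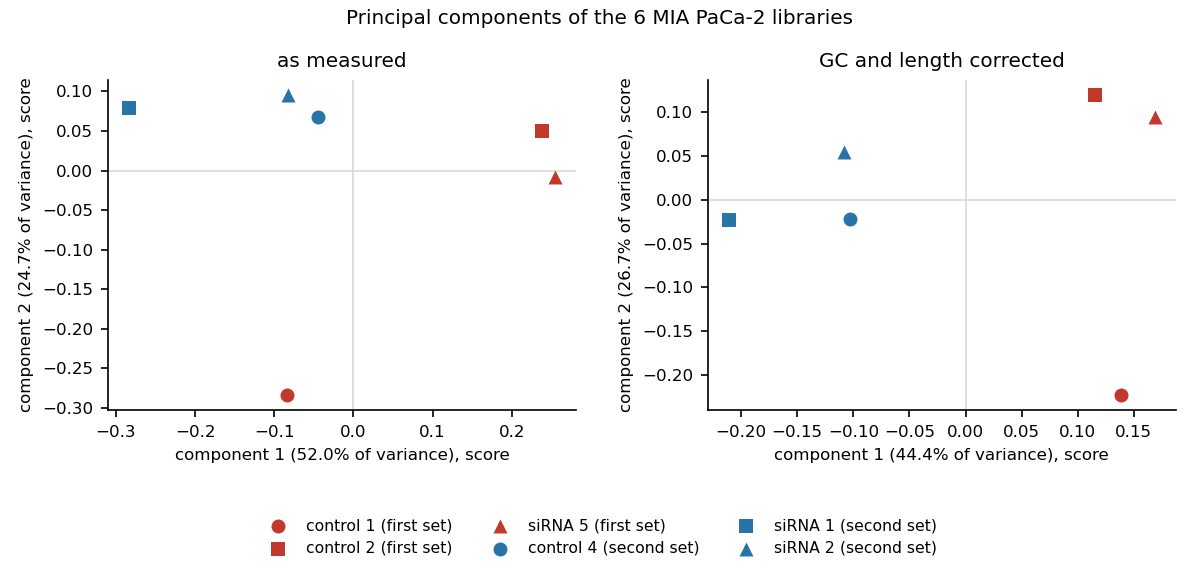
Scores of the 6 MIA PaCa-2 libraries on the first (x axis) and second (y axis) principal component of log2(CPM + 0.5), as measured on the left and after subtraction of GC and length trends on the right; red is the first set, blue the second. On the left control 1 scores -0.08 on component 1, beside control 4 and siRNA 2, and on the right all 3 red points score above 0 and all 3 blue points below 0.

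The gradient ran with the GC content and the length of transcripts. Among the genes at 10 CPM or more, in the group with the highest GC content of 5 equal groups, the median deviation of a library from the mean of the 6 was 0.25 in control 2, 0.23 in siRNA 5, -0.19 in control 1, -0.33 in siRNA 1, 0.09 in control 4 and -0.05 in siRNA 2 on the log2 scale. Control 1 thus went against the other libraries of its set. Genes in the lowest GC group had a median log2 difference between the sets of -0.16, with 3.76% higher and 17.9% lower in the first set without overlap, and those in the highest group 0.21, with 13.9% and 2.40%. By length, the group of shortest transcripts had a median of 0.09 and the longest -0.16. The part of base composition, length or RNA quality in any single gene's difference was not tested. Gene lists below are therefore also given after the median deviation of each library within 20 bins of GC content and 20 bins of length had been subtracted, called corrected, a step added after the data were seen.

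**Figure D2:**
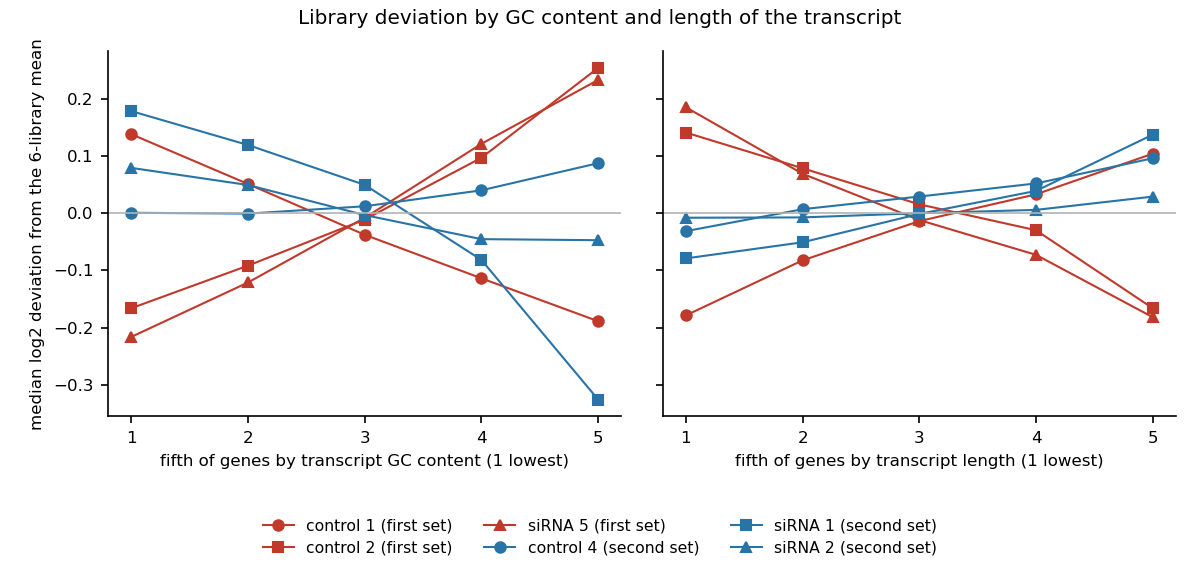
Median log2 deviation of each library from the 6-library mean (y axis) in 5 equal groups of genes ordered by GC content (left) or length (right) of the longest transcript (x axis, 1 lowest); red lines are the first set, blue the second. Control 2 and siRNA 5 climb from -0.17 and -0.22 to 0.25 and 0.23 with GC content, whereas control 1 declines from 0.14 to -0.19 and siRNA 1 from 0.18 to -0.33.

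Of 17862 genes kept by the count filter, 1773 (9.93%) had all 3 libraries of the first set above all 3 of the second, and 1988 (11.1%) had them all below. Together these were 21.1%, against 8.04% (1436 genes) for the division by siRNA. The set counts are what the division was chosen on, and nothing is read from them. Most differences were small: the median over all genes was 0.00, and the central 90% ran from -0.55 to 0.57. A 2-fold difference without overlap was seen in 83 genes higher (0.465%) and 66 lower (0.369%) in the first set. After correction 2211 genes were higher and 2209 lower without overlap (12.7% each), and 57 and 75 at 2-fold, so the balance between the directions at 2-fold depended on that step. With 2 libraries left in a set more genes lie apart by construction: 22.8% higher and 23.1% lower without control 1, 14.6% and 15.5% without control 2, 15.5% and 18% without control 4, and 13.7% and 15.5% without siRNA 2. Counts of a list without 1 library are to be read against these shares, and counts with all 6 against 9.93% and 11.1%, or 12.7% each way after correction. Of the 149 genes at 2-fold, 143 could be corrected and 140 of these stayed apart in the same direction.

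The 15 genes that lay farthest apart in each direction, by the gap between the nearest libraries of the 2 sets at a mean of 10 CPM or more, are described next. All 30 stayed apart in the same direction after correction. On the higher side of the first set the genes included replication and chromosome genes (MCM3, CDC45, E2F1, ZWINT, XRCC3) and RNA-binding proteins (SRSF1, HNRNPM). Also among them were PYCR3, SFXN2, SPHK2, WDR25, IFI35 and the antisense transcript GATA2-AS1. PYCR3, an enzyme of proline synthesis, had the widest gap at 35.3, 30.1 and 42.4 CPM in the first set and 14.7, 7.40 and 13.8 CPM in the second, a log2 difference of 1.59. ZWINT, a kinetochore protein, was at 53.1, 54.2 and 57.9 CPM against 22.1, 24.1 and 27.1 CPM. SFXN2, a mitochondrial carrier, was at 19.7, 16.7 and 18.2 CPM against 8.01, 9.73 and 9.18 CPM. In each of these genes every library of the first set exceeded the highest of the second, with spreads within a set much narrower than the step between them for ZWINT and SFXN2.

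The lower side included NAV2, NDRG4, GSDMB, GUCA1B, SEC24D, MSMO1, WIPI1, MXI1, KLHL24, ZNF8-ERVK3-1, NDRG1, PKD1L2, LCORL and RAB11FIP4. NAV2, a cytoskeletal protein first known from neurons, was at 11.4, 7.06 and 9.69 CPM in the first set and 31.5, 41.1 and 24.5 CPM in the second, a log2 difference of -1.73. NDRG4 was at 13.7, 17.6 and 12.1 CPM against 48.8, 40.8 and 33.1 CPM. SEC24D, a coat protein of vesicles that leave the endoplasmic reticulum, was at 25.9, 26.3 and 20.95 CPM against 47.2, 49.8 and 47.6 CPM. Here too the sets did not overlap, and siRNA 5 was the lowest library for SEC24D and NDRG4, but not for NAV2. NDRG1 also varied among PANC-1 libraries along another line: it was at 17.7 and 21.2 CPM in PANC-1 control 1 and siRNA 2 and between 5.52 and 9.68 CPM in the other libraries.

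**Figure D3:**
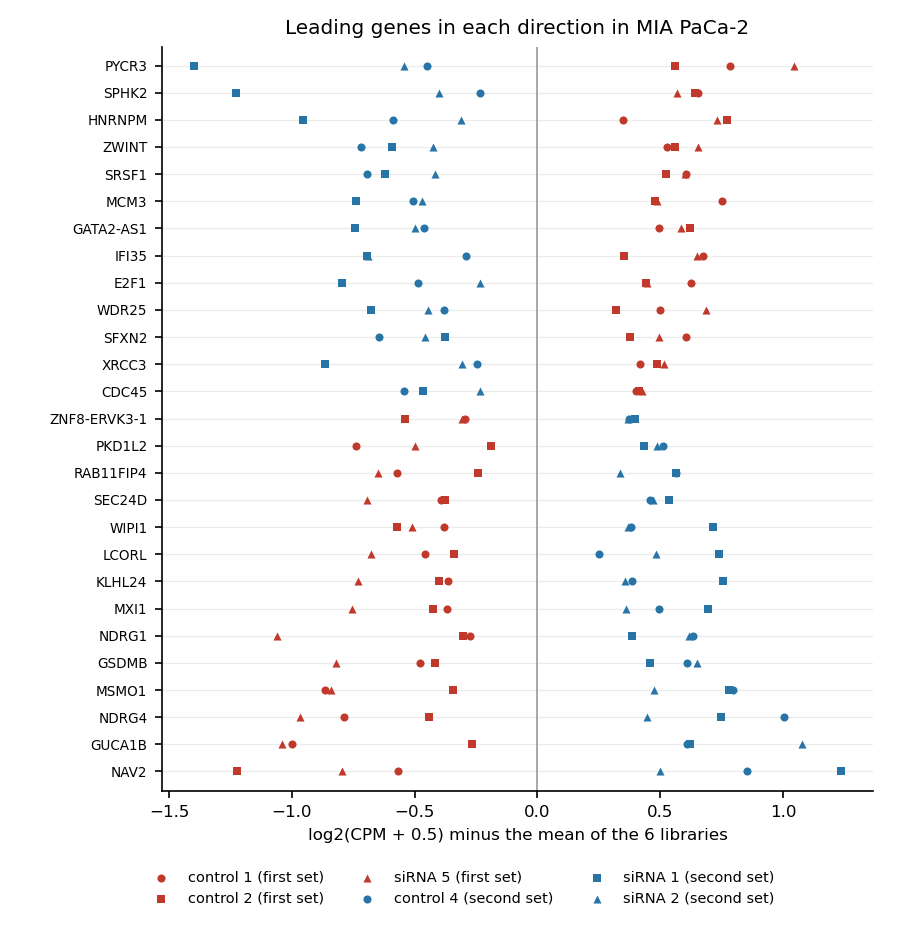
Leading genes in each direction (y axis; 27 of the 30 are drawn) with log2(CPM + 0.5) in each MIA PaCa-2 library minus the mean of the 6 (x axis); red is the first set, blue the second, and the shape gives the library. Red and blue points do not overlap in any gene drawn, by the rule that chose them, and siRNA 1 is the lowest blue point for PYCR3, SPHK2 and XRCC3.

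Genes of DNA replication and the G1/S transition had the highest median difference between the sets among the lists examined. Of 37 genes listed, 36 were measured, and 19 were higher in the first set without overlap, against 9.93% of all genes, with 1 lower (11.1%). The median log2 difference was 0.51 against 0.00 over all genes. It was 0.60 between control libraries alone, 0.43 between siRNA libraries alone and 0.48 after correction, when 20 genes were higher and 1 lower. Leaving out any 1 library gave 19 to 24 genes higher and 1 or 2 lower, and medians from 0.41 to 0.60. The shares of all genes rose as well, to 22.8% higher and 23.1% lower without control 1. They were 14.6% and 15.5% without control 2, 15.5% and 18% without control 4, and 13.7% and 15.5% without siRNA 2. For removal of either remaining siRNA library the shares by direction are not given here, so the list's counts there are not set against them. Genes apart in either direction were counted for every removal, and the range is given with the dependence on processing below. The mean deviation of the list was 0.29, 0.17 and 0.26 in the first set and -0.39, -0.26 and -0.07 in the second, so control 4 had the lowest replication level and siRNA 2 came nearest to the first set.

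The promoters of 3 of these genes are shown because they carry the sequence that E2F factors are known to bind, the factor family that also includes a member of the list. All are from RefSeq on GRCh38.p14, the 150 bases before the gene's start, 5′ to 3′ on the gene's strand. Capitals mark matches to TTTNNCGC or GGCGGGAA on either strand, and overlapping matches run together. MCM3 encodes a subunit of the helicase that opens the double helix, and its promoter is chr6:52284743-52284892 on the minus strand. E2F1 encodes an E2F factor, with its promoter at chr20:33686386-33686535 on the minus strand. PCNA encodes the sliding clamp of the DNA polymerases, with its promoter at chr20:5126623-5126772 on the minus strand. CDC45, part of the same helicase, is shown as a promoter of the list with neither form in this window (chr22:19479770-19479919, plus strand). Its window does hold the near match tttggcgggag, which departs from each form in the last letter only.
MCM3: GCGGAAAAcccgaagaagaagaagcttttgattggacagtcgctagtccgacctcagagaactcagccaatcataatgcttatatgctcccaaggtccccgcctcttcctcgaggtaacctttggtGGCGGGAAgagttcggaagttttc
E2F1: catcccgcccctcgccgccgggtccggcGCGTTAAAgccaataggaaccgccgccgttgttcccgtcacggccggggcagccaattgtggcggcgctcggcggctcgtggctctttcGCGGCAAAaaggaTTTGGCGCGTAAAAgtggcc
PCNA: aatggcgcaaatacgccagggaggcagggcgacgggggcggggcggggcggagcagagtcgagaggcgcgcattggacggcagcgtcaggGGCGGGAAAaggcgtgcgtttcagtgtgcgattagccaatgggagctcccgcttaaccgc
CDC45: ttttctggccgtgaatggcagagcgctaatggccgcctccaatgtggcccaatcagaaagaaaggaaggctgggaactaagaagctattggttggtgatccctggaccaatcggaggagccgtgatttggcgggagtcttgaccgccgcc

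Of 32 list members found in the promoter table, 18 had at least 1 of these letter strings in the 250 bases before the start. The share was 7.84% of all 27305 promoters of that length, and 11.7% of the 11554 matched to genes kept by the count filter. Among list members without overlap and higher in the first set the count was 10 of 16, and among the remaining members 8 of 16. The motif was chosen after the values were seen, and a match is a description of these letters, not of binding. Of the genes of mitosis and the spindle, described next, a match was found in 3 of 33 promoters. For the SR proteins and hnRNPs, splicing factors described below, it was found in 8 of 23.

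Among the helicase subunits, MCM3 (ENSG00000112118) was at 197, 163 and 164 CPM in the first set and 82.3, 69.9 and 84.4 CPM in the second, or 175 ± 19.4 and 78.9 ± 7.86 CPM (SD, n = 3), a log2 difference of 1.14. MCM5 was at 133, 124 and 140.0 CPM against 61.6, 65.4 and 80.3 CPM, and MCM2 at 275, 239.8 and 267 CPM against 125, 133 and 161 CPM. All 6 MCM genes lay apart, down to MCM6 at 208, 192 and 199.5 CPM against 134, 144 and 151 CPM (0.48). CDC45, the helicase cofactor, was nearly constant within the first set at 44.2, 44.5 and 44.9 CPM and lay at 22.7, 24.0 and 28.3 CPM in the second. GINS2, of the same complex, was at 47.6, 44.1 and 48.9 CPM against 20.99, 24.5 and 32.7 CPM. In MCM5, MCM2, CDC45 and GINS2 alike, siRNA 2 was the highest library of the second set and still below every library of the first.

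The helicase loader CDC6 was at 83.7, 49.4 and 51.1 CPM against 34.6, 31.8 and 40.3 CPM, highest in control 1. PCNA was at 176, 178 and 179.8 CPM against 95.7, 108 and 130.1 CPM. POLA2, a subunit of the priming polymerase, was at 50.9, 36.2 and 48.3 CPM against 28.6, 26.7 and 27.1 CPM, while POLE, the catalytic subunit of the leading-strand polymerase, differed by 0.25. The genes just named lay apart, with POLE closest to overlap among them. Other polymerase and loader genes of the list did so less or not at all. POLA1 lay apart by a gap of only 0.02 on the log2 scale, and POLD1, POLE2 and the helicase loader CDT1 overlapped. Of the RFC genes, RFC2 lay apart and RFC3, RFC4 and RFC5 overlapped. Of the nucleotide enzymes, TK1 (thymidine kinase) was at 128, 177 and 210.1 CPM against 85.7, 80.2 and 119.6 CPM. TYMS (thymidylate synthase) was at 272, 372 and 351 CPM against 217, 213 and 254 CPM. The ribonucleotide reductase genes did not share this pattern: RRM2 was at 307, 399 and 354 CPM against 294, 366 and 331 CPM, and the sets overlapped.

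Of the regulators, E2F1 was at 49.1, 43.2 and 43.3 CPM in the first set and 22.4, 18.0 and 26.9 CPM in the second, a log2 difference of 1.01 that was 0.81 after correction. E2F2 and the cyclin gene CCNE2 were low and overlapped. CCNE1, which encodes cyclin E1 and drives entry into S phase, was the member that lay on the other side, at 30.3, 32.0 and 33.4 CPM against 36.6, 38.1 and 34.4 CPM. The origin recognition genes ORC1 and ORC6 and SLBP, which binds histone mRNA in S phase, overlapped between the sets. FEN1 counted among the 19 at only 0.476, 0.523 and 0.817 CPM against 0.126, 0.263 and 0.356 CPM. In PANC-1, where no such sets were drawn, MCM3 ranged from 155 to 211 CPM and E2F1 from 56.7 to 91.8 CPM over 6 libraries, so the second set lay below all PANC-1 libraries for both genes, and the first set for E2F1 as well.

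**Figure D4:**
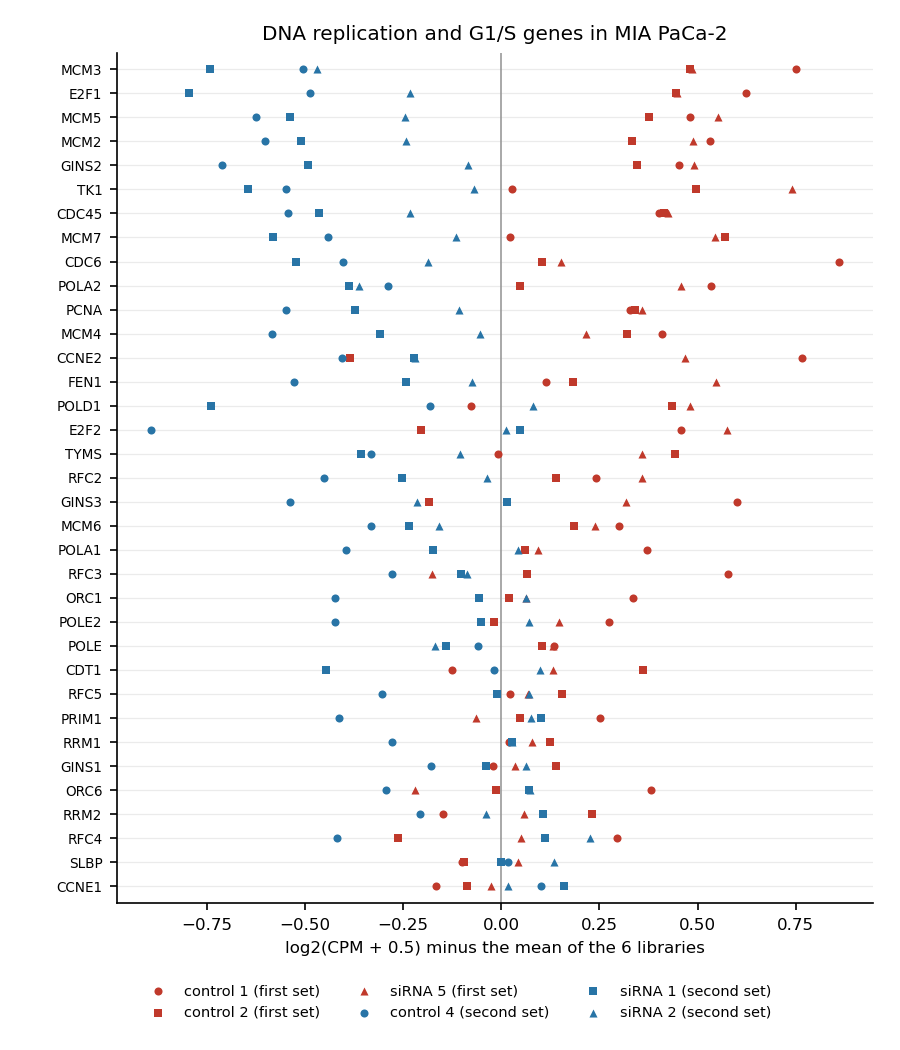
Genes of DNA replication and G1/S (35 of the 36 measured; y axis, ordered by the difference between the sets) with log2(CPM + 0.5) in each MIA PaCa-2 library minus the mean of the 6 (x axis); red is the first set, blue the second. The MCM genes, E2F1, CDC45 and PCNA keep red and blue apart, the lower rows such as RRM2 and RFC4 mix them, and CCNE1 at the bottom is reversed by -0.19.

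Genes of the later cell cycle gave a direction that depended on the libraries used. Of 40 measured genes of mitosis and the spindle 3 were higher in the first set without overlap (9.93% of all genes) and 0 lower (11.1%), with a median of -0.05, and 2 and 0 after correction, with a median of 0.01. The median was 0.17 between control libraries alone and -0.20 between siRNA libraries alone. Without control 1 the list had 11 higher and 1 lower (22.8% and 23.1% of all genes), without control 2 it had 3 and 10, and without control 4 it had 3 and 15. The 3 higher genes were SPC25, a kinetochore subunit, at 31.8, 38.1 and 34.7 CPM against 14.2, 20.96 and 24.7 CPM, the motor gene KIF4A and the transcription factor gene FOXM1. Within this list the libraries split differently: the mean deviation was -0.23 in control 1 and -0.22 in control 4, and 0.19, 0.11 and 0.16 in control 2, siRNA 1 and siRNA 2. DNA repair genes were higher without overlap in 10 of 36 (9.93% of all genes) and lower in 1, with a median of 0.09, and in 16 (12.7%) and 0 after correction, with a median of 0.26. Without control 1 that list had 11 higher and 13 lower (22.8% and 23.1% of all genes) and a median of -0.08, so its position rested on that library, whose mean deviation was 0.36. The repair genes farthest apart work in replication or recombination: LIG1, the ligase that joins Okazaki fragments, was at 61.7, 76.5 and 80.0 CPM against 40.7, 31.8 and 43.4 CPM, and XRCC3, of homologous recombination, at 39.6, 41.5 and 42.3 CPM against 24.8, 15.97 and 23.7 CPM. XRCC3 and LIG1 both had siRNA 1 as the lowest library. CLSPN, an adaptor of the replication checkpoint, was at 60.7, 40.8 and 40.4 CPM against 29.7, 31.3 and 37.5 CPM. Of 16 histone genes measured 4 were higher without overlap (9.93% of all genes) and 0 lower (11.1%), with a median of -0.01. After correction 3 were higher and 1 lower (12.7% of all genes each), with a median of -0.11. Among the 4 was H2BC12 at 41.7, 32.9 and 48.7 CPM against 27.9, 26.7 and 28.7 CPM. The others, H4C8, H2BC4 and H2AC11, were low, at no more than 0.981, 1.31 and 4.03 CPM in any MIA PaCa-2 library.

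Genes of cell cycle exit and G1 control, most of which restrain the cycle, were looked at in a list of 25 written after the data were seen. Of these 8 were lower in the first set without overlap (11.1% of all genes) and 2 higher (9.93%), with a median of -0.16. After correction 8 were lower and 3 higher, with a median of -0.15, and without control 1 the counts were 12 and 5 (23.1% and 22.8% of all genes). CDKN1C, a CDK inhibitor, was at 6.04, 34.1 and 20.3 CPM against 40.0, 41.8 and 39.7 CPM, so that most of its difference lay in control 1. YPEL3, linked to growth arrest, was at 18.9, 31.5 and 26.7 CPM against 41.9, 41.8 and 43.2 CPM. YPEL3 had control 1 lowest too, with the second set nearly constant. The pocket protein gene RBL2 was at 139, 128 and 137 CPM against 157, 188 and 164 CPM, and RB1 was also lower without overlap. The 2 genes on the higher side were CDK4, at 171, 211 and 209.9 CPM against 154, 111 and 152 CPM, and E2F4.

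Splicing factors were also higher in the first set in part. Of 25 measured SR proteins and hnRNPs, which choose splice sites and package pre-mRNA, 10 were higher in the first set without overlap (9.93% of all genes) and 2 lower (11.1%), with a median of 0.29. After correction these were 13, 1 and 0.41; the list's transcripts are poor in GC, with a median of 39.9%. HNRNPM was at 398, 532 and 518 CPM against 208, 161 and 251 CPM, a log2 difference of 1.24. SRSF1 was at 94.8, 89.7 and 94.7 CPM against 38.3, 40.3 and 46.4 CPM, and SRSF2 at 283, 194 and 263 CPM against 142, 138 and 139.7 CPM. The sets did not overlap in these 3 genes, and in SRSF1 the libraries of a set also lay close to each other. SRSF3, SRSF5, HNRNPDL, HNRNPD, HNRNPH1, HNRNPU and HNRNPK were higher as well, by 0.25 to 0.62. SRSF4 (183, 276 and 204 CPM against 304, 294 and 320.4 CPM) and HNRNPF were lower. CIRBP, a cold-inducible relative of RBM3, was at 137, 112 and 142 CPM against 102, 107 and 83.2 CPM, apart as measured but overlapping after correction.

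Other growth-related lists had smaller positive medians. Of 22 ribosome biogenesis genes 6 were higher without overlap (9.93% of all genes) and 1 lower (11.1%), with a median of 0.18, and 7 and 1 after correction, with a median of 0.10. Without control 1 they had 9 higher and 5 lower (22.8% and 23.1% of all genes). PES1, needed for the large ribosomal subunit, was at 114, 130.1 and 134 CPM against 96.8, 70.0 and 90.1 CPM, and nucleolin (NCL) at 1152, 1062 and 1099 CPM against 841, 854 and 998 CPM. Of 27 proteasome genes 26 had a positive difference, with a median of 0.22, and 4 were higher without overlap (9.93% of all genes) and 0 lower. After correction 7 were higher and 1 lower, with a median of 0.28. The count rose to 22 higher and 0 lower without control 1 (22.8% of all genes higher) and to 11 and 0 without siRNA 2 (13.7%). Among the 4 was PSMC4 at 145, 160.0 and 182 CPM against 114, 121 and 124 CPM. None of 75 ribosomal protein genes lay apart, as measured or corrected, but without control 1 there were 66 higher and 0 lower (22.8% of all genes higher), with a median of 0.28 against 0.05 with all 6 libraries. Their mean deviation was -0.43 in control 1 and 0.29 in siRNA 5, which belong to the same set. Mitochondrially encoded genes were listed at 0 counts in every library and give no value.

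Sterol genes lay on the opposite side. Of 23 measured genes of cholesterol synthesis and uptake 9 were lower in the first set without overlap (11.1% of all genes) and 1 was higher (9.93%), with a median of -0.18 (-0.27 after correction, with 10 lower and 1 higher). MSMO1 (ENSG00000052802), the methylsterol monooxygenase late in the pathway, was farthest apart. Its promoter, shown for comparison with those above, is chr4:165327519-165327668 on the plus strand of GRCh38.p14, again from RefSeq, with capitals for CCAAT on either strand, the letters bound by the factor NF-Y, a known partner of SREBP2.
MSMO1: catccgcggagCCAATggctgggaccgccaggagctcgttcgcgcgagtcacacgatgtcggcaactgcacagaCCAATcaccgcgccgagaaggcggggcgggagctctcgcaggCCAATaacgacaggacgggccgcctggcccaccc

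CCAAT, searched on both strands, occurred in the 250 bases before the start of 15 of 17 list members in the promoter table. The share was 33.0% of all promoters and 34.3% of those matched to kept genes. It is a frequent string and was also present in 26 of 33 mitosis promoters. A sterol string, TCACNCCAC, was searched as well and occurred in 1 of the 17, against 0.875% of all promoters. Among the 6 matched members lower in the first set without overlap it occurred in 0. MSMO1 was at 49.8, 71.8 and 50.7 CPM in the first set and 159, 157 and 127 CPM in the second, or 57.5 ± 12.4 and 148 ± 17.9 CPM (SD, n = 3), a log2 difference of -1.37. HMGCS1, the synthase at the start of the pathway, was at 43.9, 58.1 and 35.8 CPM against 104, 101 and 68.0 CPM. For MSMO1 no library of the first set reached even the lowest of the second, and the same held for HMGCS1. INSIG1, which holds SREBPs back when sterol is plentiful and is itself a target of them, was at 103, 199.5 and 156 CPM against 281, 310.4 and 248 CPM. FDFT1, SQLE, IDI1, SC5D and HSD17B7 had log2 differences from -0.72 to -0.45. In HMGCS1 the highest library of the first set (control 2, 58.1 CPM) and the lowest of the second (siRNA 2, 68.0 CPM) were close.

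Members of the list other than the 9 lower genes and the 1 higher gene, PMVK, overlapped. SREBF2, which encodes SREBP2, was at 191, 266 and 223 CPM against 285, 199 and 244 CPM. PMVK was higher, at 20.9, 28.1 and 33.8 CPM against 20.6, 15.6 and 19.9 CPM. The list's median was -0.42 between control libraries and 0.00 between siRNA libraries, and 0.00 without control 1, when 9 genes were lower without overlap and 4 were higher (23.1% and 22.8% of all genes). Among siRNA libraries alone the differences of the lower genes named above ran from -1.47 (MSMO1) to -0.46 (HSD17B7). Of 11 fatty acid genes 3 were lower without overlap (11.1% of all genes) and 1 higher, and 3 and 2 after correction. ACSS2, which makes acetyl-CoA, was at 52.8, 64.1 and 60.6 CPM against 97.5, 84.7 and 73.4 CPM, and SREBF1, which encodes the regulator of this pathway, at 292, 411 and 402 CPM against 236, 141 and 211 CPM.

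Lists tied to low oxygen and to lysosomes held genes lower in the first set. Of 21 measured HIF targets 6 were lower without overlap (11.1% of all genes) and 0 higher (9.93%), with a median of -0.17. After correction 5 were lower and 2 higher (12.7% of all genes each), with a median of -0.05. Without control 1 the counts were 10 lower and 1 higher (23.1% and 22.8% of all genes), and without control 4 they were 7 and 4. NDRG1 was at 11.3, 11.1 and 6.36 CPM against 21.7, 18.2 and 21.5 CPM, and MXI1, an antagonist of MYC, at 20.6, 19.7 and 15.6 CPM against 37.8, 43.4 and 34.4 CPM. Both genes had their lowest value in siRNA 5. The histone demethylase gene KDM3A was at 48.0, 49.6 and 60.5 CPM against 63.7, 110.4 and 94.4 CPM. The remaining HIF genes without overlap were BNIP3L, P4HA1 and ERO1A, while VEGFA overlapped at 101, 48.4 and 49.7 CPM against 74.1, 72.3 and 55.0 CPM. Of 26 lysosome and autophagy genes 8 were lower without overlap (11.1% of all genes) and 3 higher (9.93%), with a median of -0.06, and 9 and 3 after correction, with a median of -0.12. Without control 1 they had 8 lower and 9 higher (23.1% and 22.8% of all genes) and a median of 0.02. WIPI1, which acts at the forming autophagosome, was at 18.0, 15.7 and 16.4 CPM against 30.9, 39.0 and 30.7 CPM. GABARAPL1, of the membrane-conjugated ATG8 family, had a log2 difference of -0.79. Neither gene overlapped between the sets. NPC1, which exports cholesterol from lysosomes, was at 70.9, 67.9 and 57.5 CPM against 104, 97.1 and 79.2 CPM. On the higher side ATP6V0D1, a subunit of the proton pump, was at 123, 174 and 202 CPM against 113, 114 and 112 CPM.

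Endoplasmic reticulum chaperones also had a negative median. Of 21 genes 6 were lower without overlap (11.1% of all genes) and 1 higher (9.93%), with a median of -0.19, and 5 and 2 after correction, with a median of -0.11. Without control 1 the counts were 8 and 3 (23.1% and 22.8% of all genes). HSPA5, the main luminal chaperone, was at 696, 611 and 614 CPM against 953, 906 and 794 CPM, and HSP90B1 at 727, 751 and 721 CPM against 904, 1096 and 975 CPM. Every library of the second set was above every library of the first for both chaperones. SLC38A2, an amino acid transporter listed with the ATF4 response, was at 1257, 951 and 783 CPM against 1639, 1667 and 1613 CPM. The ATF4 list as a whole had 3 of 32 genes lower (11.1% of all genes) and 2 higher, with a median of -0.19, and 2 and 2 after correction, with a median of -0.27. Without control 1 it had 18 lower and 3 higher (23.1% and 22.8% of all genes), with a median of -0.50. CHAC1, one of its most variable members, was at 43.9, 7.65 and 4.79 CPM against 45.9, 24.9 and 6.06 CPM, high in control 1 and control 4 of different sets. Among 14 long non-coding RNAs 6 were lower without overlap (11.1% of all genes) and 1 higher, with a median of -0.20, and 4 and 3 after correction (12.7% each), with a median of -0.13. Without control 1 there were 9 and 1 (23.1% and 22.8%). SNHG1 was at 97.7, 69.8 and 61.4 CPM against 107, 120.3 and 100.1 CPM, and DANCR, the exception, at 55.9, 53.4 and 69.6 CPM against 38.6, 36.8 and 37.5 CPM. Of the TGF-beta targets 4 of 15 were lower without overlap (11.1% of all genes) and 0 higher, with a median of -0.10, and 3 and 1 after correction, with a median of -0.02. The lower genes included PMEPA1, SKIL and SMAD7, the last at no more than 0.563 CPM in any library. Without control 1 the counts were 5 lower and 4 higher (23.1% and 22.8% of all genes).

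**Figure D5:**
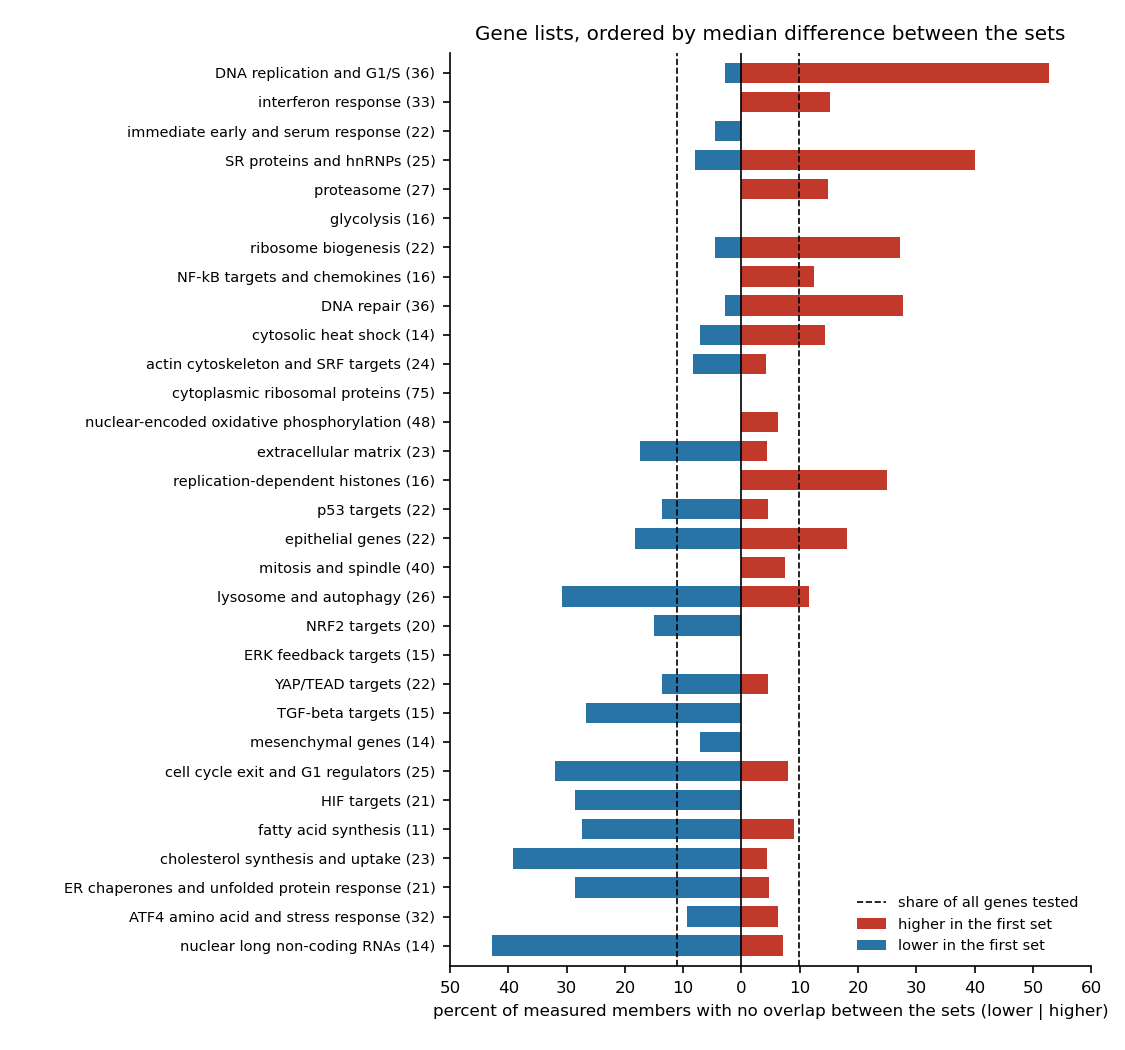
Percent of measured members whose libraries did not overlap between the sets (x axis), higher in the first set to the right in red and lower to the left in blue, for each list with at least 10 measured members (number in brackets; y axis, ordered by median difference); dashed lines mark the share of all genes, 9.93% higher and 11.1% lower. DNA replication (19 of 36) and SR proteins and hnRNPs (10 of 25) have the longest red bars, and cholesterol synthesis (9 of 23) and long non-coding RNAs (6 of 14) the longest blue bars.

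Some lists had a median away from 0 with 1 library far from the rest of its set. Interferon response genes had a median of 0.38, with 5 of 33 higher without overlap (9.93% of all genes) and 0 lower, 5 and 0 also after correction (12.7%), with a median of 0.45. The list had a mean deviation of 0.88 in control 1 against 0.14 in siRNA 5 and -0.37 in control 2 of the same set. OAS2, an antiviral enzyme, was at 32.6, 5.10 and 10.2 CPM against 7.82, 7.66 and 4.46 CPM, and OAS3 at 47.2, 9.74 and 19.4 CPM against 9.14, 8.75 and 4.96 CPM. SAMD9L, among the 5, was at 0.309, 0.0654 and 0.0584 CPM against 0, 0 and 0 CPM. In control 2 and siRNA 5 that is under the level a count of 0 allows. MX2, also among the 5, lay apart by a gap of only 0.07 on the log2 scale. Without control 1 the interferon list had 6 higher and 2 lower (22.8% and 23.1% of all genes) and a median of 0.04, and without control 2 it had 16 higher (14.6% of all genes), 0 lower and a median of 0.68. Immediate early genes had a median of 0.30 with 0 of 22 higher and 1 lower (KLF6), and of 0.07 after correction, with 2 higher and 1 lower. The median was -0.14 between control libraries alone and 0.88 between siRNA libraries alone. Without control 1 it was 0.73, with 11 higher and 1 lower (22.8% and 23.1% of all genes). FOS was at 52.8, 199 and 338 CPM against 105, 83.5 and 65.1 CPM, and EGR1 at 320.1, 676 and 719.8 CPM against 595, 448 and 142 CPM, highest in siRNA 5 and overlapping between the sets. Genes with a single library more than 1 log2 unit away from the other 5, at 10 CPM or more, were most frequent in control 1 (16 above, 9 below) and siRNA 1 (22 below), with 4 above and 1 below in siRNA 5, 4 below in siRNA 2 and 0 in control 2 and control 4. Those of control 1 included PLSCR1 (33.7 CPM against 7.01 to 11.4 CPM in the others) and PER1 (15.1 CPM against 38.7 to 112 CPM), a clock gene.

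The remaining lists had few genes apart with all 6 libraries, against 9.93% of all genes higher and 11.1% lower. Cytosolic heat shock genes had 2 of 14 higher and 1 lower (2 and 0 after correction), oxidative phosphorylation genes 3 of 48 and 0 (4 and 1), and NF-kB targets 2 of 16 and 0 (2 and 1). None of 16 glycolysis genes or 6 metallothioneins lay apart (1 higher and 0 lower, and 0 each, after correction). Several of these counts changed without control 1, when 22.8% of all genes were higher and 23.1% lower. Heat shock genes then had 9 higher and 1 lower, oxidative phosphorylation genes 30 and 0, glycolysis genes 11 and 1, metallothioneins 3 and 0, and actin and SRF targets 10 and 4. NF-kB targets had 6 higher and 0 lower without control 4 (15.5% of all genes higher). On the other side extracellular matrix genes had 1 of 23 higher and 4 lower (3 and 5 after correction), YAP/TEAD targets 1 of 22 and 3 (1 and 3), and p53 targets 1 of 22 and 3 (2 and 3). NRF2 targets had 0 of 20 and 3 (0 and 2), actin and SRF targets 1 of 24 and 2 (2 and 2), mesenchymal genes 0 of 14 and 1 (0 and 4), and ERK feedback targets 0 of 15 and 0 (0 and 2). Without control 1 the YAP/TEAD list had 1 higher and 6 lower, the NRF2 list 5 and 6, the p53 list 3 and 5 and the ERK list 2 and 5. Epithelial genes had 4 of 22 in each direction (3 higher and 6 lower after correction). KRT8 was at 1308, 1592 and 1663 CPM against 1203, 801 and 977 CPM, while DSP, the desmosomal linker, had a log2 difference of -0.81. Of the small non-coding RNAs only 2 were measured.

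The siRNA comparison was then made with and without the set in the model, since a difference that runs across the groups adds to the spread within them. In edgeR's quasi-likelihood fit of all 12 libraries, 2 genes (0.0112%) passed an adjusted p of 0.05 between RBM3 siRNA and control in MIA PaCa-2, RBM3 and CCND3, with 525 genes at an unadjusted p under 0.05. With the set as a term 1 gene passed (0.0056%), CCND3, and 419 were at an unadjusted p under 0.05. DESeq2 called 21 (0.118%), 9 higher and 12 lower. Leaving out any 1 of the 6 MIA PaCa-2 libraries gave 0 calls in the edgeR fit without the set, with 351 to 1184 genes at an unadjusted p under 0.05. Without PANC-1 siRNA 3, the library with MIA PaCa-2 marker counts, the 2 calls were again RBM3 and CCND3. Without PANC-1 siRNA 2 there were 3 calls, and without PANC-1 control 1, control 2, control 4 or siRNA 1 there were 0. The set was chosen on these values, so the spread left in the second fit is too small and its p-values are not independent evidence.

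CCND3 (ENSG00000112576) encodes cyclin D3, a partner of CDK4 and CDK6 in G1. It was at 18.1, 18.0 and 15.1 CPM in control 1, control 2 and control 4, and at 60.6, 39.9 and 40.8 CPM in siRNA 5, siRNA 1 and siRNA 2. Every siRNA library was above every control library, and among controls and siRNA libraries alike the first set held the highest value. Its log2 fold change was 1.46 (SE 0.19, edgeR adjusted p = 0.0426) without the set and 1.59 (SE 0.15, edgeR adjusted p = 0.00638) with it. The set was chosen on these values and holds control and siRNA libraries in unequal numbers, so the smaller p-value is no added evidence. Over 6 removals of single MIA PaCa-2 libraries the fit with the set called 1 gene without control 1, siRNA 1 or siRNA 2, and 0 without control 2, control 4 or siRNA 5.

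RBM3 (ENSG00000102317) had a log2 fold change of -2.35 (SE 0.31, edgeR adjusted p = 0.0426), which became -2.21 (SE 0.30, edgeR adjusted p = 0.115) with the set in the fit of 12 libraries. With the set and MIA PaCa-2 libraries only, it was -2.21 (SE 0.15, edgeR adjusted p = 0.00480), and RBM3 was the 1 gene called. The limit given for CCND3 holds for both RBM3 fits with the set. PRR11, the gene in the title of the study and chosen by it on these samples, was at 28.5, 26.3 and 27.9 CPM in control 1, control 2 and control 4 and at 43.0, 57.9 and 54.0 CPM in siRNA 5, siRNA 1 and siRNA 2. Among the siRNA libraries its lowest value was thus the one in the first set. PDS5A, a cohesin regulator that DESeq2 called, was at 225, 187 and 214 CPM in the controls and 82.8, 86.7 and 77.3 CPM in the siRNA libraries, and MORF4L1 at 242, 320.0 and 273 CPM and 130.0, 151 and 156 CPM in the same order. The PDS5A values of the siRNA libraries were close in both sets. MORF4L1 has a near-identical pseudogene, MORF4L1P1, that DESeq2 called as well, and reads of the pair may be split between them. The replication gene MCM3 overlapped between control and siRNA, at 197, 163 and 82.3 CPM in the controls and 164, 69.9 and 84.4 CPM in the siRNA libraries.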

How the data were processed

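RNA from 12 libraries was sequenced as paired 75 bp reads after TruSeq preparation, per the labels' protocols, and the 6 MIA PaCa-2 libraries are described. For the molecule, total RNA and cytoplasmic RNA are both named in the labels. The values the authors deposited are raw counts per Ensembl gene, made with STAR 2.5.2a, Picard and featureCounts (Subread) on hg19 (GRCh37), per the submitters' processing notes. The annotation release, strand setting and treatment of duplicates were not given in the sources used here, so overlapping and antisense genes are uncertain.

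Members, gene lists and tests were chosen with earlier results of these data known, and the sets were chosen on these counts. Of 63677 rows, 39699 carried a symbol, and rows without one held 1.20 to 1.32% of the counts of a MIA PaCa-2 library. filterByExpr in edgeR 4.0.16 (R 4.3.3) kept 17862 genes over all 12 libraries with the 4 groups. Set differences used TMM CPM and log2(CPM + 0.5), which understates the change of low genes, with Python 3.11.15, pandas 2.3.3 and numpy 2.4.6. A gene lay apart, or without overlap, when all 3 libraries of 1 set exceeded all 3 of the other.

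For siRNA, edgeR's quasi-likelihood test was fitted to all 12 libraries with 4 group means and Benjamini-Hochberg adjustment at 0.05 over all genes, with the SE taken as the fold change (log2, absolute) over the square root of F. It was also run on counts simulated with a spread and a set effect that were fixed and not measured here. No accuracy is read from that run. DESeq2 1.42.0, voom in limma 3.58.1, other scalings and filters, the set, a replicate block and removal of each library were alternatives. Transcript GC content and length came from the longest transcript in GENCODE, for 17363 kept genes (97.2%). Named genes were the 15 in each direction with the widest gap between the sets at 10 CPM or more, up to 4 members of a list (12 in 6 lists) with the largest difference, siRNA-called genes, and genes with 1 library apart. Other genes, named for their role, were chosen after their values were seen, as were the promoter motifs. Some genes are not reported here.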

Additional observations from a re-analysis of the deposited data

How the results depend on the processing

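The number of genes without overlap between the sets was 3761. It was 3742 with median-of-ratios size factors, 3629 with library size alone, 4528 without the count filter and 2315 among genes at 10 CPM or more. Leaving out 1 library each gave 4549 to 8196, the most without control 1 (8196), with 5994 without control 4. With fewer libraries in a set more genes lie apart by construction. Higher and lower numbers were 1773 and 1988 as reported, and 1873 and 1869 with median-of-ratios size factors. For a 2-fold difference as well, 149 genes became 50 at 10 CPM or more (35 higher, 15 lower), 1113 at 1.5-fold and 9 at 3-fold, and 124 to 316 without 1 library, with 270 without control 1, 304 without control 2, 316 without control 4 and 241 without siRNA 2. After GC and length correction they were 57 higher and 75 lower instead of 83 and 66, and the cause was not tested.

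Among 34 list medians, 26 moved by less than the spread between replicates after that correction and 24 did so without control 1. The sign of the median changed in 10 of the 34 between control libraries alone, in 3 between siRNA libraries alone, in 2 after the correction and in 4 without control 1. The NF-kB list was among the 10, at -0.0323 against 0.14.

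For siRNA, 2 edgeR calls became 21 with DESeq2, 1 with voom, 0 with median-of-ratios size factors (510 genes at an unadjusted p under 0.05), 1 with the set and 1 in MIA PaCa-2 alone with the set. They ranged from 0 to 3 without 1 library, and from 0 to 1 with the set; the cause was not tested. A replicate block gave 0 calls, with 1073 genes at an unadjusted p under 0.05. The groups share only the numbers 1 and 2. Deviations of same-numbered MIA PaCa-2 libraries correlated at 0.31 and -0.13 over 9690 genes, and those of differently numbered ones at -0.68 to 0.64. These values cannot settle whether the numbers pair the samples.

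The sets rest on 3 libraries each, and depth limits genes near the count that 0 allows, such as FEN1. No label separates the sets, and what differed between them was not tested.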
